A study of Mus musculus with 48 samples.

Results

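In the liver lobule, hepatocytes around the central vein carry out other tasks than those around the portal vein. Endothelial cells of the central vein release Wnt ligands, which stabilise β-catenin in the neighbouring hepatocytes and, with R-spondins that act through Lgr receptors, keep a narrow band of cells on a pericentral programme. A well known task of this band is to capture ammonium and glutamate from the blood and to make glutamine from them. A set of 7 genes of this Wnt-dependent programme is described here in the liver of mice with and without hepatocyte p110α, on 2 diets and in 2 nutritional states. They are *Glul*, *Slc1a2*, *Rhbg* and *Lhpp*, which act in transport and metabolism, and *Lgr5*, *Axin2* and *Tbx3*, which belong to the Wnt pathway or lie downstream of it. They were chosen by name, as the array probes annotated with these symbols. All 7 were on the array, with 14 of its 56605 non-control probes, and all 7 had at least 1 probe among the 30793 probes (20486 genes) kept after a filter on dim spots.

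Liver RNA came from male *p110α*hep+/+ mice and male *p110α*hep−/− mice. Both genotypes carried floxed p110α alleles, and only *p110α*hep−/− mice carried a Cre recombinase under the albumin promoter, which is used to delete the p110α gene in hepatocytes. PI3Kα needs p110α as its catalytic subunit. Other cells of the liver were not separated here, and the albumin promoter can be active in the precursors that hepatocytes and bile duct cells share. Their littermates without Cre were the *p110α*hep+/+ controls. From the age of 12 weeks, mice ate CTRL diet (D12450J) or HFD (D12492, in which fat gives 60% of calories) for a further 12 weeks. Samples were taken at ZT16, from mice with free access to food (fed) or from mice fasted for 24 h since the previous ZT16 (fasted). Each of the 8 groups had 6 mice with 1 array each, so that 48 one-colour Agilent arrays were compared.

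Levels are normalized log2 signals. Differences are log2 fold changes from a limma fit of all 48 arrays with array weights, which is why they may depart a little from a simple subtraction of group means. A difference was called when its limma p-value, corrected by Benjamini–Hochberg for all 30793 probes, was at most 0.05. A gene stands by its brightest probe, and levels of different genes cannot be compared on an array. Whole liver was measured, so fewer pericentral cells and less RNA per cell cannot be told apart. Between 52.3% and 59.3% of non-control spots were well above background on each array, no spot was saturated, and 46 of the 48 arrays correlated best with an array of their own group. Hepatocyte markers (*Alb*, *Apoa1*, *Ttr*, *Serpina1a*, *Fgb*, *Tat*) were well above background on all 48 arrays. The *Pik3ca* probe, which reads the gene of p110α, was called higher, not lower, in arrays labelled *p110α*hep−/− in 3 of 4 contrasts. Its log2 fold changes were 0.39, 0.07, 0.58 and 0.25 on CTRL diet fed, CTRL diet fasted, HFD fed and HFD fasted (limma adjusted p = 0.000402, 0.534, 2.79e-07 and 0.0177). Whether the probe lies in the deleted part of the gene was not determined here, and this probe leaves the deletion unchecked. All directions given between genotypes therefore rest on the sample labels, given to mice that were genotyped by PCR. Arrays were washed in 2 batches of 3 slides, each slide with 1 array of every group, and 38 of the 39 calls of the 7 genes had the same sign within both batches.

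The probes differ in where they read each transcript. The brightest probes of *Glul*, *Lgr5*, *Tbx3*, *Axin2* and *Lhpp* lie at bases 2718, 4618, 4554, 4142 and 1509 of their transcripts, and that of *Rhbg* at base 1383. The following 60-base targets are shown because they lie elsewhere in the transcript than the brightest probe and read the same gene (*Glul*, *Lgr5*, *Tbx3*), or because they are themselves the brightest probe (*Slc1a2*). Their positions are in mm9.
Glul, base 408, chr1:155751765-155751824, + strand: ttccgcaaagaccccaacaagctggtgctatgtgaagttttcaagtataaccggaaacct
Glul, base 1062, chr1:155755109-155755168, + strand: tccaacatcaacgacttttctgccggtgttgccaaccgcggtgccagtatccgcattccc
Slc1a2, base 2142, chr2:102617706-102617765, + strand: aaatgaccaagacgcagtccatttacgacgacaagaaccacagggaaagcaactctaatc
Lgr5, second probe, chr10:114899782-114899841, − strand: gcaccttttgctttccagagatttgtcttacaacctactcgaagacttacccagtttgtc
Tbx3, base 3028, chr5:120132985-120133044, + strand: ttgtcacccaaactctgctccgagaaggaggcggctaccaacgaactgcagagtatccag

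Promoter windows of RefSeq (GRCm38.p6, 250 bases before to 50 after a gene's start) were at hand for 3 of the 7 genes, *Glul*, *Slc1a2* and *Axin2*. *Tbx3*, *Lgr5*, *Rhbg* and *Lhpp* were not matched. The factors of the TCF/LEF family carry β-catenin to DNA, and 4 short forms of their motif were searched on both strands. Of 32851 promoter windows of the same length, 5.14% hold CTTTGAA, while 5.85% hold the form CTTTGTT. The form CTTTGAT is in 3.73% and the form CTTTGTA in 3.63% of windows, and 16.9% hold at least 1 of the 4. The window of *Slc1a2* holds 1 match, CTTTGAT on the strand opposite to the gene, which begins 207 bases before the start. The windows of *Glul* and *Axin2* hold none of these letters. The 250 bases before the start of *Glul* and of *Slc1a2* are shown because both genes were called in several contrasts, and *Axin2* in none, and capitals mark the match.
Glul, chr1:153899679-153899928, + strand: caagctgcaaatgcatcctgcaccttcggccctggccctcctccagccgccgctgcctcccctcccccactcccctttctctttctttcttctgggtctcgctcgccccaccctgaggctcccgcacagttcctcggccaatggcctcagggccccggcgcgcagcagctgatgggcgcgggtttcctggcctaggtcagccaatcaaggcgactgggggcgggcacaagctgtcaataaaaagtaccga
Slc1a2, chr2:102706188-102706437, + strand: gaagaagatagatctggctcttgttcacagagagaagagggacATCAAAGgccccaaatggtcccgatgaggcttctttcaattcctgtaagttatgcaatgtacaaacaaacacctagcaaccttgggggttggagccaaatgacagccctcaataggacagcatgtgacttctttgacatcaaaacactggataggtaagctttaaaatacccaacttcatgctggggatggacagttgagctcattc

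Diet was compared first, to learn how the pericentral genes responded to HFD in each genotype. Over the 4 diet contrasts, 14 of the 28 tests of the 7 genes were called, 13 higher and 1 lower on HFD. Of all tests of 20486 genes, 15.8% were called (8.23% higher and 7.57% lower). By contrast, 3 of the 7 genes were called in fed and 3 in fasted *p110α*hep+/+ mice (24% and 16.1% of all genes), and 3 in fed and 5 in fasted *p110α*hep−/− mice (12.3% and 10.9%). With a fold change over 1.5 as well, 9 of 28 tests were called, beside 2.7% of all. *Lgr5* rose in all 4 contrasts and *Glul* and *Rhbg* in 3, whereas *Slc1a2* was called higher in both contrasts of *p110α*hep−/− mice, *Tbx3* in 1 of them, and *Lhpp* fell in 1 contrast. *Lgr5* is 1 of 161 genes called in all 4 diet contrasts (0.786% of 20486). The median log2 fold change of the 7 genes was 0.24 in fed and 0.14 in fasted *p110α*hep+/+ mice, and 0.40 and 0.54 in *p110α*hep−/− mice, where the median of all genes lay between -0.02 and 0. Both medians of *p110α*hep+/+ mice are the values of *Axin2*, which was not called there and whose probe was near the background. That probe passed the filter on dim spots only through groups on HFD, so these 2 medians are not independent of the filter.

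Genotype calls went both ways, among the 7 genes and among all genes. Over the 4 genotype contrasts, 10 of 28 tests were called, 6 of them higher in mice without hepatocyte p110α and 4 lower. Of all genes, 29.1% of tests were called (14.8% higher and 14.3% lower). By contrast, 1 of the 7 genes was called in fed and 1 in fasted mice on CTRL diet (21.7% and 24.8% of all genes), and 4 in fed and 4 in fasted mice on HFD (33% and 36.8%). With a fold change over 1.5, 6 of 28 tests were called, beside 4.94% of all. All 3 calls of *Slc1a2* and both calls of *Tbx3* were higher, all 3 calls of *Rhbg* were lower, and *Glul* was called in none. Fasting calls also went both ways, in the 7 genes as in all genes. Over the 4 fasting contrasts, 12 of 28 tests were called, 4 higher and 8 lower in fasted mice. Of all genes, 31.3% of tests were called (15% higher and 16.3% lower). In *p110α*hep+/+ mice, CTRL diet gave 4 calls and HFD 2 among the 7 genes (32.6% and 28.5% of all genes). The numbers were again 4 and 2 for *p110α*hep−/− mice (35.6% and 28.6%). With a fold change over 1.5, 4 of 28 tests were called, beside 5.79% of all. With median scaling of the arrays the split was 6 higher and 7 lower, and from the processed signal it was 5 higher and 7 lower. For genotype and fasting, the share of calls among the 7 genes (35.7% and 42.9%) lay near that of all genes. Over the 6 interactions, 3 of 42 tests were called, 1 higher and 2 lower, all with a fold change over 1.5, beside 4.3% of all (1.86% higher, 2.44% lower, and 1.63% with a fold change over 1.5). With limma, 0 of the 7 genes were called for genotype by diet in fed mice (2 at an unadjusted p below 0.05, and 2.95% of all genes called), for genotype by fasting on HFD (2 and 3.43%) and for diet by fasting in *p110α*hep+/+ mice (0 and 2.37%).

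**Figure D1:**
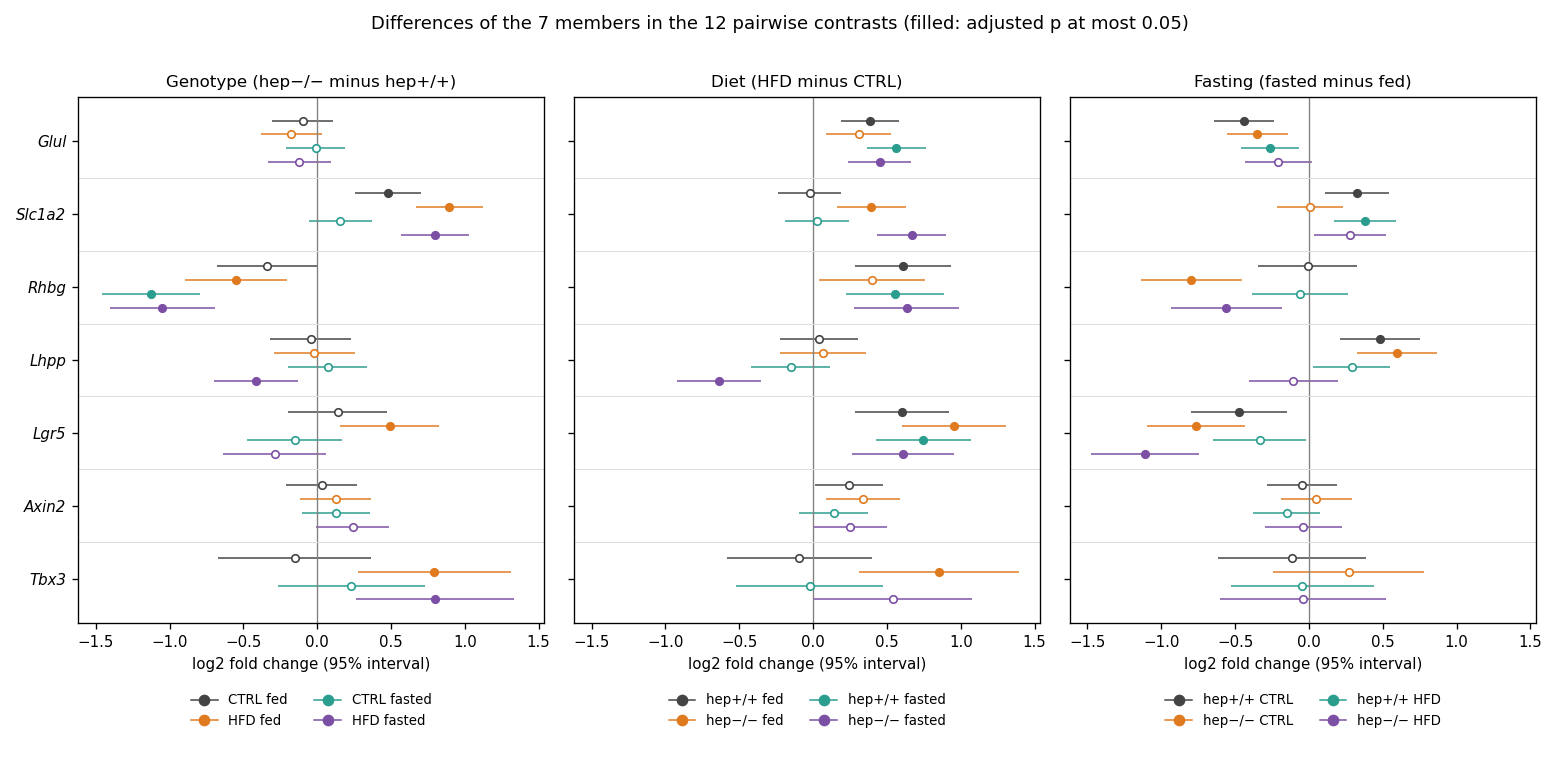
Log2 fold changes (x axis) of the 7 genes (rows) for genotype, diet and fasting, with 95% intervals from limma; colours give the background in which each contrast was made, and filled points were called at an adjusted p of at most 0.05. Diet differences lie mostly to the right, with 13 of 14 calls higher on HFD, whereas genotype calls lie on both sides (*Slc1a2* and *Tbx3* right, *Rhbg* left).

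*Glul* encodes glutamine synthetase, the enzyme that joins ammonium to glutamate. In fed mice, its log2 signal was lowest, median and highest at 14.37, 14.72 and 14.96 in *p110α*hep+/+ mice on CTRL diet and at 14.80, 15.12 and 15.34 on HFD. In fed *p110α*hep−/− mice it was 14.45, 14.58 and 14.79 on CTRL diet and 14.30, 14.93 and 15.19 on HFD. Fed groups overlapped between diets in both genotypes. After fasting, the signal was 14.07, 14.32 and 14.59 in *p110α*hep+/+ mice on CTRL diet and 14.71, 14.94 and 15.09 on HFD. In fasted *p110α*hep−/− mice it was 14.18, 14.30 and 14.39 on CTRL diet and 14.61, 14.70 and 15.17 on HFD. Fasted mice on HFD were thus all above fasted mice on CTRL diet of the same genotype.

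*Glul* was higher on HFD in fed and fasted *p110α*hep+/+ mice (log2 fold changes of 0.39, limma adjusted p = 0.00344, and 0.56, adjusted p = 0.000103) and in fasted *p110α*hep−/− mice (0.45, adjusted p = 0.00367). In fed *p110α*hep−/− mice the log2 fold change was 0.31 with a limma adjusted p of 0.0555, which passed the threshold without replicate 3 of the HFD group (0.36, adjusted p = 0.0177) and in 7 other fits that left out 1 array. Fasting lowered *Glul* on CTRL diet by 0.44 in *p110α*hep+/+ mice (limma adjusted p = 0.000658) and by 0.35 in *p110α*hep−/− mice (adjusted p = 0.00614). On HFD the fall was 0.26 in *p110α*hep+/+ mice (adjusted p = 0.0389), and *p110α*hep−/− mice had a log2 fold change of -0.21 (adjusted p = 0.176). The call in *p110α*hep+/+ mice on HFD was lost without replicate 2, 3 or 4 of the fasted group (adjusted p = 0.143, 0.143 and 0.0694), without replicate 2, 3, 4 or 6 of the fed group (0.0654, 0.057, 0.0517 and 0.163). It held in 5 of 13 other alternatives, where the log2 fold change came as near 0 as -0.16 and the adjusted p reached 0.232. Genotype moved *Glul* in no contrast (log2 fold changes from -0.18 to -0.01, lowest limma adjusted p = 0.199), and the 95% intervals reached from -0.38 to 0.19.

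The 2 other probes of *Glul*, at bases 408 and 1062, followed the brightest over the 48 arrays (Pearson r = 0.88 and 0.92). They had the same sign as the brightest probe in all 6 contrasts in which it was called, and passed the threshold themselves in 6 and 5 of these. In the order of the 8 group means, fasted mice on CTRL diet were lowest (14.29 ± 0.09 without and 14.33 ± 0.19 with hepatocyte p110α; SD, n = 6) and fed *p110α*hep+/+ mice on HFD highest (15.10 ± 0.18, n = 6). The gap to the next group exceeded the pooled SD of the neighbours at 2 of 7 steps, above the fasted CTRL groups and below the highest group.

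*Slc1a2* encodes a sodium-dependent glutamate transporter, known from astrocytes and from pericentral hepatocytes. It was called higher in *p110α*hep−/− mice on HFD in both nutritional states, and on CTRL diet in fed mice only. In fed mice on HFD, the lowest, median and highest log2 signals were 11.32, 11.78 and 11.95 in *p110α*hep+/+ and 12.36, 12.57 and 12.95 in *p110α*hep−/− mice. In fasted mice on HFD they were 11.68, 12.07 and 12.65 in *p110α*hep+/+ and 12.66, 12.90 and 13.03 in *p110α*hep−/− mice. On HFD the genotypes did not overlap in either nutritional state.

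On CTRL diet, fed mice had 11.38, 11.83 and 12.07 in *p110α*hep+/+ and 11.97, 12.26 and 12.32 in *p110α*hep−/− mice, and fasted mice had 11.92, 12.03 and 12.30 and 12.05, 12.21 and 12.34. Here the genotypes overlapped. The genotype difference was 0.90 (SE 0.11, limma adjusted p = 2.71e-08) in fed and 0.80 (SE 0.11, adjusted p = 5.98e-07) in fasted mice on HFD. It was 0.48 (SE 0.11, adjusted p = 0.00155) in fed and 0.16 (SE 0.11, adjusted p = 0.309) in fasted mice on CTRL diet. The difference between diets was itself called in fasted mice (interaction 0.64, SE 0.16, limma adjusted p = 0.0127, beside 5.07% of genes called), and was 0.42 (adjusted p = 0.139) in fed mice.

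The same interaction appears from the side of diet. *Slc1a2* was 0.40 higher on HFD in fed and 0.67 higher in fasted *p110α*hep−/− mice (limma adjusted p = 0.0196 and 8.62e-05), with no overlap between diets in either state. In *p110α*hep+/+ mice the log2 fold changes were -0.02 and 0.03, with 95% intervals of -0.24 to 0.19 and -0.19 to 0.24. The call in fed *p110α*hep−/− mice was lost without replicate 4 on CTRL diet (0.35, adjusted p = 0.0504), replicate 1 on HFD (0.33, 0.0743) or replicate 2 on HFD (0.36, 0.0788). Fasting raised *Slc1a2* in *p110α*hep+/+ mice by 0.33 on CTRL diet (limma adjusted p = 0.0178) and by 0.38 on HFD (adjusted p = 0.00536), while *p110α*hep−/− mice had 0.01 (adjusted p = 0.97) and 0.28 (adjusted p = 0.0815). The call on CTRL diet was lost without replicate 4 of the fasted (0.28, 0.058) or replicate 1 or 3 of the fed *p110α*hep+/+ mice (0.24, 0.106, and 0.25, 0.0957). With p110α present, *Slc1a2* was thus called higher and *Glul* lower with fasting on both diets. The *Glul* call on HFD was lost in several alternatives, as given above. The 8 group means of *Slc1a2* ran from 11.70 ± 0.23 in fed *p110α*hep+/+ mice on HFD to 12.89 ± 0.13 in fasted *p110α*hep−/− mice on HFD (SD, n = 6), and neighbours were further apart than their pooled SD at 3 of 7 steps.

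Astrocytes also express *Slc1a2* and *Glul*. Of 3 glial and neuronal markers, *Gfap* did not pass the filter on dim probes, and *Aqp4* and *Snap25* were lower in *p110α*hep−/− mice in 7 of 8 genotype tests, opposite to *Slc1a2*. Their summed level ran from 9.44 to 10.63 over the arrays of *p110α*hep−/− mice and from 9.90 to 11.36 over those of *p110α*hep+/+ mice. This is the log2 of added linear signals, in which *Snap25*, the brighter probe, weighs most. *Aqp4* was lower by 1.97 in fed mice on CTRL diet (limma adjusted p = 1.37e-08). The part of these markers in the result was not tested.

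*Rhbg* encodes an ammonium transporter of the basolateral membrane. Of the 7 genes it had the largest spread of group means, from 9.15 ± 0.12 in fasted *p110α*hep−/− mice on CTRL diet to 10.92 ± 0.48 in fed *p110α*hep+/+ mice on HFD (SD, n = 6). In fasted mice on CTRL diet, the lowest, median and highest signals were 10.07, 10.29 and 10.65 in *p110α*hep+/+ and 8.96, 9.14 and 9.30 in *p110α*hep−/− mice. In fasted mice on HFD they were 10.37, 10.81 and 11.72 and 9.41, 9.76 and 10.14. In both fasted comparisons every *p110α*hep−/− mouse lay below every *p110α*hep+/+ mouse.

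In fed mice on CTRL diet, *Rhbg* was at 9.72, 10.30 and 10.55 in *p110α*hep+/+ and at 9.32, 10.01 and 10.25 in *p110α*hep−/− mice. In fed mice on HFD it was at 10.22, 10.91 and 11.72 and at 9.52, 10.37 and 10.57. Fed genotypes overlapped on both diets. The genotype difference was -1.12 (SE 0.16, limma adjusted p = 1.51e-06) and -1.05 (SE 0.18, adjusted p = 9.57e-06) in fasted mice on CTRL diet and HFD. It was -0.34 (SE 0.17, adjusted p = 0.167) and -0.55 (SE 0.17, adjusted p = 0.0122) in fed mice. Within the washing batches, the last was -0.21 and -0.95 (adjusted p = 0.492 and 0.0182).

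Fasting lowered *Rhbg* in *p110α*hep−/− mice by 0.80 on CTRL diet (limma adjusted p = 0.000237) and by 0.56 on HFD (adjusted p = 0.0207). In *p110α*hep+/+ mice the log2 fold changes with fasting were -0.01 and -0.06, with 95% intervals of -0.34 to 0.33 and -0.38 to 0.26. The difference of the fasting effect between genotypes was -0.79 on CTRL diet (SE 0.24, limma adjusted p = 0.0498, beside 3.99% of genes called) and -0.50 on HFD (adjusted p = 0.3). The first lies at the threshold, and 34 of 48 fits that left out 1 array lost it (adjusted p up to 0.137, without replicate 3 of fed *p110α*hep−/− mice on CTRL diet). Within the batches it was -1.20 and -0.37 (adjusted p = 0.0236 and 0.785). The fasting call in *p110α*hep−/− mice on HFD was lost without replicate 6 of the fasted group (-0.50, adjusted p = 0.0523) or replicate 2 or 5 of the fed group (-0.54, 0.0542, and -0.52, 0.0512).

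HFD raised *Rhbg* by 0.61 in fed and 0.56 in fasted *p110α*hep+/+ mice (limma adjusted p = 0.0053 and 0.0172) and by 0.63 in fasted *p110α*hep−/− mice (adjusted p = 0.0147). Fed *p110α*hep−/− mice had 0.40 (adjusted p = 0.155). The call in fasted *p110α*hep+/+ mice was lost without replicate 5 on HFD (0.43, adjusted p = 0.0571). Along the order of group means, neighbours were further apart than their pooled SD at 3 of 7 steps, and fasted *p110α*hep−/− mice on CTRL diet were the only group apart from its neighbour in every mouse.

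*Lhpp* encodes a phosphatase that acts on phosphorylated lysine, phosphohistidine and pyrophosphate. It was highest in fasted mice on CTRL diet, at 13.75, 14.09 and 14.23 (lowest, median and highest) in *p110α*hep+/+ and 13.85, 14.20 and 14.42 in *p110α*hep−/− mice. Fed mice on CTRL diet had 13.23, 13.51 and 13.76 and 13.25, 13.47 and 13.67. Fasting raised *Lhpp* on CTRL diet by 0.48 in *p110α*hep+/+ mice (limma adjusted p = 0.00461) and by 0.60 in *p110α*hep−/− mice (adjusted p = 0.000534), the latter with no overlap between fed and fasted mice.

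On HFD, *Lhpp* was at 13.47, 13.57 and 13.68 in fed and 13.14, 13.94 and 14.08 in fasted *p110α*hep+/+ mice. It was at 12.83, 13.49 and 14.04 in the fed and 13.004, 13.58 and 13.82 in the fasted group of *p110α*hep−/− mice. The fasting difference on HFD was 0.29 (limma adjusted p = 0.0925) and -0.11 (adjusted p = 0.662). In fasted *p110α*hep−/− mice, *Lhpp* was lower on HFD than on CTRL diet by 0.64 (SE 0.14, adjusted p = 0.00207) with no overlap. Within the washing batches the log2 fold change was -0.36 and -0.86 (limma adjusted p = 0.367 and 0.00962). The difference of this diet effect from that in fed mice of the genotype was -0.70 (SE 0.20, limma adjusted p = 0.0234, beside 8.02% of genes called). It was lost without replicate 1 or 3 of the fasted group on HFD (adjusted p = 0.0623 and 0.0555) or replicate 2 or 5 of the fed group on HFD (0.104 and 0.0509). Within the batches this difference was -0.36 and -0.81 and was called in neither (limma adjusted p = 0.447 and 0.161).

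Between genotypes, *Lhpp* was called in fasted mice on HFD (-0.41, limma adjusted p = 0.02). That call was lost without replicate 1 or 3 of *p110α*hep−/− (adjusted p = 0.0928 and 0.0697) or replicate 4 of *p110α*hep+/+ mice (0.0575). It differed by washing batch, with -0.03 in the first (adjusted p = 0.949) and -0.80 in the second (adjusted p = 0.00396). The second probe of *Lhpp*, at base 188, had r = 0.94 with the brightest over the 48 arrays and the same sign in the 4 contrasts in which the brightest was called. It passed the threshold in 3 of them. In the order of group means, neighbours of *Lhpp* were further apart than their pooled SD at 1 of 7 steps, between fed and fasted *p110α*hep+/+ mice on HFD.

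**Figure D2:**
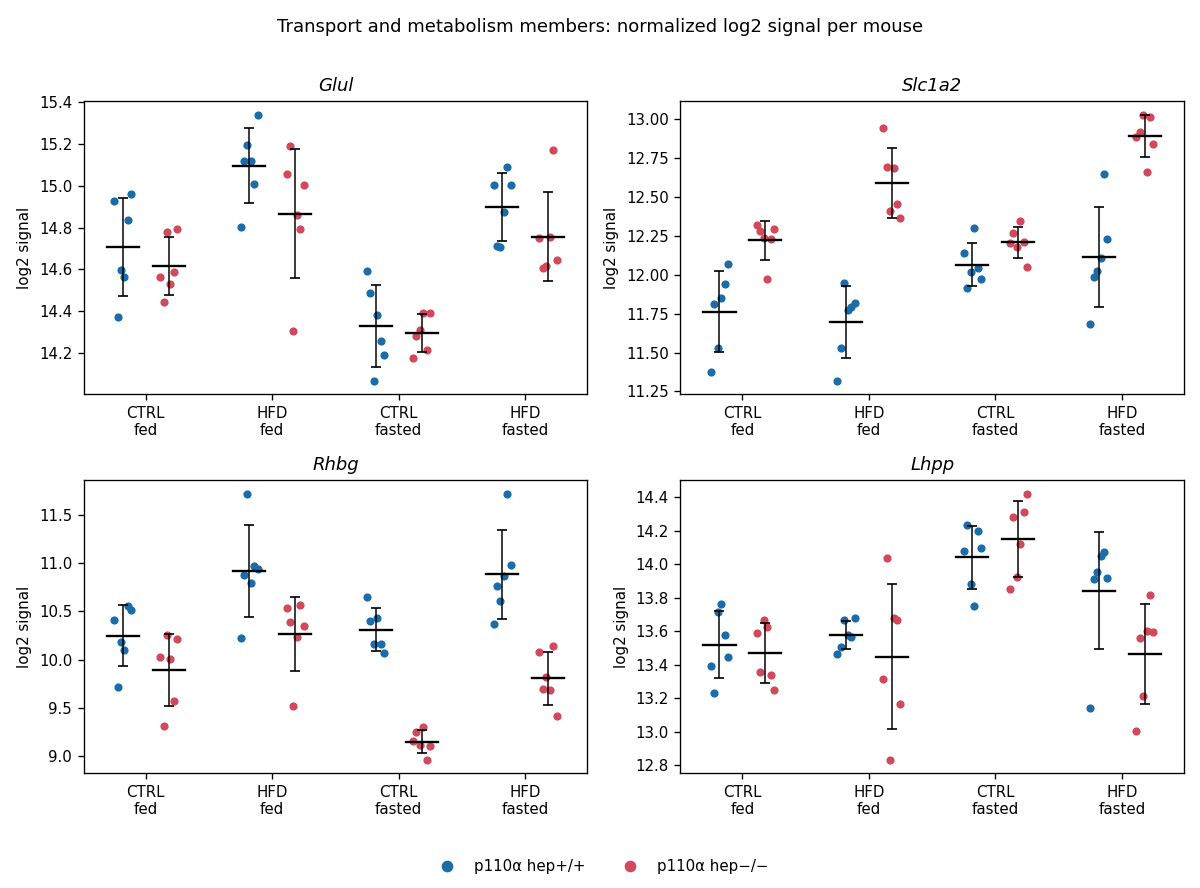
Normalized log2 signal (y axis) of *Glul*, *Slc1a2*, *Rhbg* and *Lhpp* in each of 48 mice, by diet and nutritional state; blue points are *p110α*hep+/+ and red points *p110α*hep−/− mice, with the mean (line) and SD (bars) of 6 mice. *Slc1a2* on HFD and *Rhbg* after fasting show the genotypes apart in every mouse, in opposite directions.

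*Lgr5* encodes a receptor of R-spondins and marks cells with high Wnt activity. It was called higher on HFD in both genotypes and both nutritional states. With fasting it was called lower in *p110α*hep−/− mice on both diets. In *p110α*hep+/+ mice it was called lower with fasting on CTRL diet only, a call that did not hold within washing batches. In fed mice, its lowest, median and highest log2 signals on CTRL diet were 6.63, 7.22 and 7.88 in *p110α*hep+/+ and 7.15, 7.35 and 7.76 in *p110α*hep−/− mice. On HFD they were 7.66, 7.75 and 8.23 and 7.51, 8.29 and 8.60. In fasted mice on CTRL diet they were 6.20, 6.92 and 7.23 and 6.28, 6.68 and 6.86. In fasted mice on HFD they were 7.37, 7.54 and 7.67 and 6.62, 7.25 and 7.59. Fed mice on HFD of both genotypes had the highest means, and fasted mice on CTRL diet the lowest.

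The diet difference of *Lgr5* was 0.60 in fed (SE 0.16, limma adjusted p = 0.00444) and 0.75 in fasted *p110α*hep+/+ mice (SE 0.16, adjusted p = 0.00103), the latter with no overlap between diets. It was 0.95 (SE 0.17, adjusted p = 0.000137) in fed and 0.61 (SE 0.17, adjusted p = 0.016) in fasted *p110α*hep−/− mice. The last was lost without replicate 1 (0.54, adjusted p = 0.0569) or 2 (0.49, 0.0913) of the HFD group. All 4 exceeded a fold change of 1.5.

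Fasting lowered *Lgr5* in *p110α*hep−/− mice by 0.77 on CTRL diet (limma adjusted p = 0.000266), with no overlap, and by 1.11 on HFD (adjusted p = 8.38e-06). In *p110α*hep+/+ mice it fell by 0.48 on CTRL diet (adjusted p = 0.0211), and on HFD the log2 fold change was -0.33 (adjusted p = 0.112). The fall in *p110α*hep+/+ mice on CTRL diet did not hold within washing batches, with 0.19 in the first (limma adjusted p = 0.545) and -1.10 in the second (adjusted p = 0.000127). It was also lost without replicate 5 or 6 of the fasted group (adjusted p = 0.0942 and 0.0992) or replicate 1 or 3 of the fed group (0.118 and 0.0782). Fasting and genotype on HFD had an interaction of -0.78 (SE 0.24, adjusted p = 0.0601), which passed the threshold in 7 of 48 fits that left out 1 array, such as that without replicate 3 of fed *p110α*hep−/− mice on HFD (-0.84, adjusted p = 0.0306).

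Between genotypes, *Lgr5* was higher in *p110α*hep−/− mice in fed mice on HFD (0.49, limma adjusted p = 0.021). This call was lost without replicate 2 (adjusted p = 0.0766) or 5 (0.0661) of *p110α*hep−/− or replicate 4 (0.0626) of *p110α*hep+/+ mice. Within the washing batches it was 0.73 and 0.24 (adjusted p = 0.00648 and 0.456). The other 3 genotype contrasts lay between -0.29 and 0.14 (lowest adjusted p = 0.196). The second probe of *Lgr5* was dim, well above background on 31 of 48 arrays and on 0 of 6 in each of the fasted CTRL groups. It had r = 0.80 with the brightest and the same sign in all 8 contrasts in which the brightest was called, and passed the threshold in 4 of them. Neighbours in the order of group means were further apart than their pooled SD at 3 of 7 steps.

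*Axin2*, a scaffold that feeds back to degrade β-catenin, is a common readout of Wnt activity. Its brightest probe was near the background here, well above it on 32 of 48 arrays and on as few as 2 of 6 in fasted *p110α*hep+/+ mice on CTRL diet, and its other probe, at base 1971, on 0 arrays. Group means ran from 5.52 ± 0.18 in fasted *p110α*hep+/+ mice on CTRL diet to 5.91 ± 0.13 in fed *p110α*hep−/− mice on HFD (SD, n = 6), with no gap between neighbours above their pooled SD. With limma, 0 of the 12 pairwise tests of *Axin2* were called, and 3 had an unadjusted p below 0.05, all of them diet contrasts. These were 0.24 in fed *p110α*hep+/+ (adjusted p = 0.12) and 0.34 and 0.25 in fed and fasted *p110α*hep−/− mice (adjusted p = 0.0709 and 0.207). The other diet contrast was 0.14 (95% interval -0.09 to 0.37). *Axin2* passed the filter on dim spots only through groups on HFD, so its higher values on HFD are not independent of that filter. Over all alternatives, 7 of 744 refitted tests of *Axin2* were called, with the lowest adjusted p at 0.0282. Differences of this size are at the limit of what a signal so near the background can show.

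*Tbx3* encodes a T-box transcription factor that β-catenin is known to induce. It was higher in *p110α*hep−/− mice on HFD. In fed mice on HFD, its lowest, median and highest signals were 10.68, 11.35 and 11.98 in *p110α*hep+/+ and 11.32, 11.98 and 12.89 in *p110α*hep−/− mice. In fasted mice on HFD they were 10.93, 11.28 and 11.48 and 11.43, 12.04 and 12.72. The genotypes overlapped in both states, though after fasting only between 11.43 and 11.48. On CTRL diet, *p110α*hep+/+ means were 11.25 ± 0.72 fed and 11.20 ± 0.32 fasted (SD, n = 6). Those of *p110α*hep−/− mice were 11.27 ± 0.50 and 11.54 ± 0.51 (SD, n = 6). The SD of *Tbx3* within groups was the widest of the 7 genes, with a median of 0.48.

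The genotype difference of *Tbx3* on HFD was 0.79 (SE 0.26, limma adjusted p = 0.0156) in fed and 0.80 (SE 0.27, adjusted p = 0.0166) in fasted mice. On CTRL diet it was -0.15 and 0.23 (adjusted p = 0.732 and 0.55). The call in fed mice was lost without replicate 1 of *p110α*hep−/− (0.60, adjusted p = 0.0883) or replicate 4 of *p110α*hep+/+ mice (0.61, 0.0761). Within the 2 washing batches the difference was 0.64 and 0.84 in fed mice (adjusted p = 0.273 and 0.0695) and 0.39 and 1.15 in fasted mice (adjusted p = 0.553 and 0.00903). The interaction of genotype and diet was 0.95 in fed mice (adjusted p = 0.15) and 0.57 in fasted mice (adjusted p = 0.39), so a difference between diets was not called. HFD raised *Tbx3* in fed *p110α*hep−/− mice by 0.85 (adjusted p = 0.0311). This was lost without replicate 1, 3 or 4 on CTRL diet (adjusted p = 0.0563, 0.0937 and 0.0683) or replicate 1, 2 or 6 on HFD (0.13, 0.0939 and 0.0578). The second probe, at base 3028, had r = 0.94 with the brightest and passed the threshold for both genotype calls (log2 fold changes of 0.92, adjusted p = 0.00432, and 0.65, adjusted p = 0.0485), but not for the diet call in fed *p110α*hep−/− mice (0.67, adjusted p = 0.0955). Fasting gave 0 calls for *Tbx3* with limma, and 0 of these 4 tests had an unadjusted p below 0.05.

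**Figure D3:**
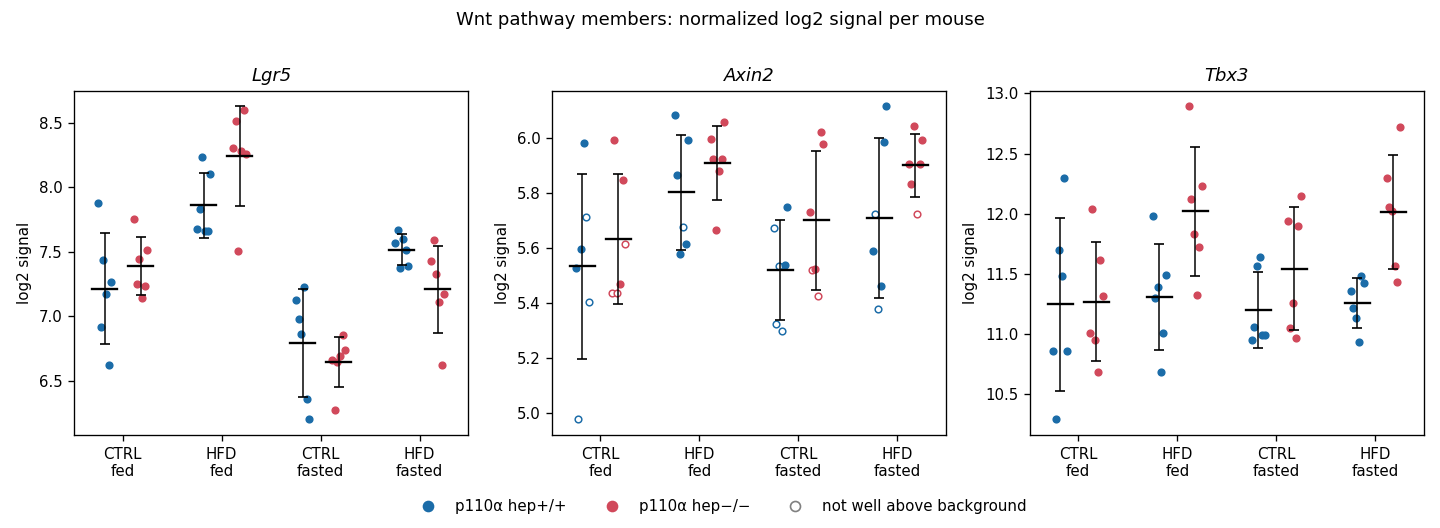
Normalized log2 signal (y axis) of *Lgr5*, *Axin2* and *Tbx3* in each of 48 mice, by diet and nutritional state; blue points are *p110α*hep+/+ and red points *p110α*hep−/− mice, open points were not well above background, and lines and bars are the mean and SD of 6 mice. *Lgr5* is highest in fed mice on HFD, and *Axin2* holds all the open points, since its spots lie near the background.

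The 7 genes did not vary as a block. Over the 48 arrays, which share groups, slides and washing batches, Pearson r was 0.72 between *Glul* and *Rhbg*, 0.69 between *Glul* and *Lgr5*, 0.70 between *Axin2* and *Tbx3* and 0.53 between *Lgr5* and *Rhbg*. After the group means were taken out, these were 0.70, 0.31, 0.63 and 0.37. *Rhbg* and *Slc1a2* had r = -0.22 over all arrays and 0.56 within groups. *Lhpp* had r = -0.42 with *Lgr5* over all arrays and 0.08 within groups. These values are descriptions of 48 arrays.

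The genes most like each of them were found by Pearson r over the 48 arrays among 20452 genes. For *Glul* the nearest was the probe labelled NAP060515-1 (0.89). For *Slc1a2* they were *Cyp2c37* (0.88) and *Cyp2c50* (0.87), closely related cytochromes P450 that array probes may not fully separate. For *Rhbg* they were *Atg4a* (0.89) and *Tmbim6* (0.87), and for *Lgr5* *Akr1c6* (0.81) and *Tfdp1* (0.80). For *Lhpp* they were *Aldh9a1* (0.79) and *Fam169b* (0.78). *Fam43a* was among the nearest of both *Axin2* (0.67) and *Tbx3* (0.69), with *Olfm1* (0.65) and *Cep152* (0.70) beside it. All these pairs had a lower r after the group means were removed, from 0.85 for *Glul* and its nearest probe down to 0.50 for *Axin2* and *Fam43a*, and *Rhbg* with *Atg4a* and *Lgr5* with *Akr1c6* came to 0.56 and 0.55. Differences between group means therefore entered into each r over the 48 arrays.

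**Figure D4:**
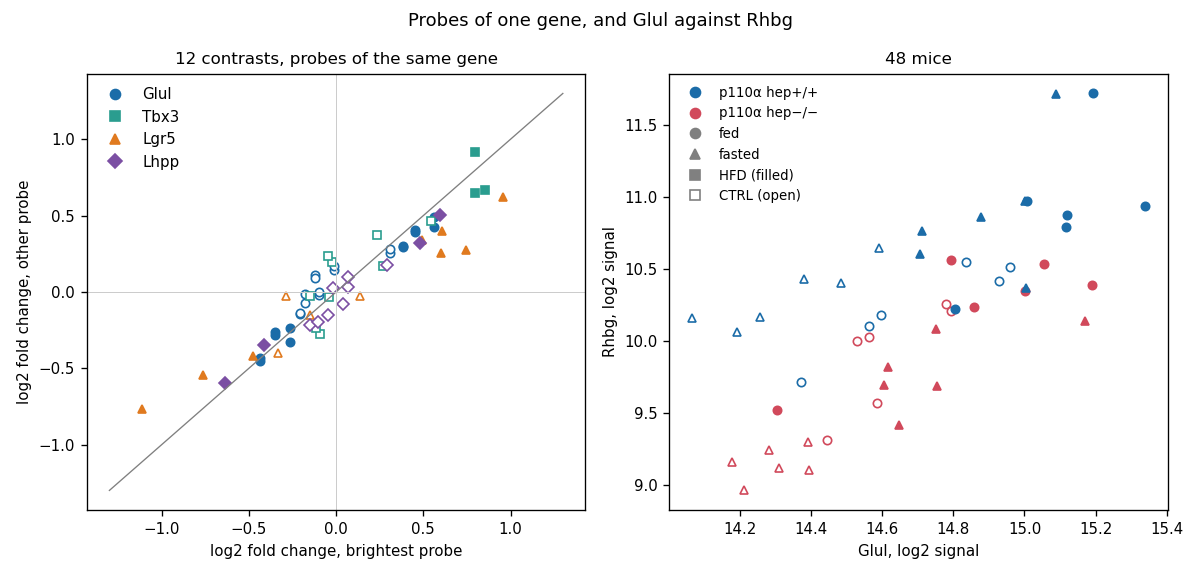
Left, log2 fold changes of the other probes of *Glul*, *Tbx3*, *Lgr5* and *Lhpp* (y axis) against those of the brightest probe (x axis) in 12 contrasts, filled where the brightest probe was called, with the line of equality. Right, log2 signal of *Rhbg* against *Glul* in 48 mice (r = 0.72), with colour for genotype, shape for nutritional state and fill for diet. Every filled point on the left has the same sign on both axes.

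Genes upstream in the pathway were read from fixed lists. Of 7 Wnt ligands and R-spondins, 8 of 28 diet tests were called (7 higher and 1 lower), 7 of 28 genotype tests (4 higher, 3 lower) and 8 of 28 fasting tests (1 higher, 7 lower). These are 28.6%, 25% and 28.6%, beside 15.8%, 29.1% and 31.3% of all genes. *Wnt2*, which the endothelium of the central vein and sinusoids makes, was 1.16 higher in fasted *p110α*hep−/− than *p110α*hep+/+ mice on HFD (limma adjusted p = 2.58e-05). *Wnt9b*, another ligand of the central vein, was 0.39 higher there (adjusted p = 0.0232) and was 0.69 lower on HFD than on CTRL diet in fed *p110α*hep−/− mice (adjusted p = 0.000533), the 1 lower diet call of the list. Among its higher diet calls, *Wnt2* rose by 0.71 in fasted *p110α*hep−/− mice (adjusted p = 0.0203), *Wnt4* by 0.52 in fasted *p110α*hep+/+ mice (0.0397), and *Wnt5a* by 0.42 in fed and 0.41 in fasted *p110α*hep+/+ mice (0.0186 and 0.0292). *Wnt5a* was lower in *p110α*hep−/− mice on HFD, by 0.52 fed and 0.67 fasted (adjusted p = 0.00329 and 0.000276), and *Wnt4* was 0.63 lower in the fasted comparison (adjusted p = 0.00799). With fasting, *Wnt4* fell on CTRL diet by 0.71 in *p110α*hep+/+ mice (adjusted p = 0.00192), and in *p110α*hep−/− mice it fell by 0.51 on CTRL diet and 0.63 on HFD (0.0262 and 0.0159). *Wnt5a* fell by 0.41 and 0.48 in *p110α*hep−/− mice on CTRL diet and HFD (0.017 and 0.0135), and *Wnt9b* gave the 1 higher fasting call, by 0.53 in *p110α*hep−/− mice on HFD (0.00447). *Rspo1* was called lower with fasting in *p110α*hep−/− mice on CTRL diet (adjusted p = 0.039), where it was well above background on 3 of 6 fasted arrays, so no fold is given.

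Of 10 Wnt receptors and co-receptors (such as *Fzd1*, *Lrp6* and *Lgr4*), 14 of 40 genotype tests were called (11 higher, 3 lower), 7 of 40 diet tests (3 higher, 4 lower) and 16 of 40 fasting tests (12 higher, 4 lower), and 0 changes exceeded a fold of 1.5. Of 17 genes of the β-catenin machinery, 20 of 68 genotype tests were called (15 higher, 5 lower), 11 of 68 diet tests (5 higher, 6 lower) and 23 of 68 fasting tests (8 higher, 15 lower). *Bcl9l*, a co-activator of β-catenin, was the gene of this list called with a fold change over 1.5, and rose with fasting by 0.37 to 0.76 in all 4 contrasts (highest limma adjusted p = 0.00211). The shares called were 35%, 17.5% and 40% for the receptors and 29.4%, 16.2% and 33.8% for the β-catenin machinery, beside the background of 29.1% for genotype, 15.8% for diet and 31.3% for fasting.

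Of 11 Wnt inhibitors and feedback genes, 10 passed the filter, and 16 of 40 genotype tests were called (40%), 13 of them higher, beside 29.1% of all genes (14.8% higher). *Wif1*, a secreted inhibitor that binds Wnt ligands, was well above background on every array of *p110α*hep−/− mice and on 0 of 6 arrays of fed *p110α*hep+/+ mice on CTRL diet and of fasted ones on HFD. Against these groups it was at least 1.97-fold and at least 4.12-fold higher in *p110α*hep−/− mice, each bound taken from the lowest signals well above background on the dim arrays (limma adjusted p = 8.67e-06 and 2.23e-11). It was also called higher in fasted mice on CTRL diet and fed mice on HFD (limma adjusted p = 0.0125 and 1.06e-10), where it was well above background on 3 of 6 and 1 of 6 *p110α*hep+/+ arrays, so no fold is given. *Wif1* passed the filter on dim spots only through the groups of *p110α*hep−/− mice. Its higher calls were therefore not independent of that filter, and the 13 higher calls of the list include them. *Notum*, a secreted enzyme that inactivates Wnt ligands and is itself a Wnt target, was higher by 0.35 to 0.74 in all 4 genotype contrasts (highest adjusted p = 2.34e-05). *Frzb*, another secreted inhibitor, was lower by 0.76 in fasted *p110α*hep−/− mice on HFD (adjusted p = 6.26e-05). Fasting lowered *Nkd1*, a feedback inhibitor, by 0.58 to 0.67 in all 4 contrasts (highest adjusted p = 3.77e-05) and *Rnf43*, which removes Wnt receptors, by 0.64 in both genotypes on CTRL diet (adjusted p = 0.0077 and 0.00774). Diet gave 9 calls of 40 in this list (5 higher, 4 lower) and fasting 15 of 40 (5 higher, 10 lower), or 22.5% and 37.5%, beside 15.8% and 31.3% of all genes.

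Other pericentral and periportal genes were also read from fixed lists, in the same whole-liver RNA. Of 15 other pericentral genes, 36 of 60 diet tests were called (60%, beside 15.8% of all genes), 31 higher and 5 lower on HFD, and the median of the list lay between 0.26 and 0.40 over the 4 contrasts. Of 15 periportal genes, 15 of 60 were called (25%), 3 higher and 12 lower, with medians of -0.30 to -0.11. *Slc13a3*, a dicarboxylate transporter, was 0.90 to 1.59 higher on HFD in all 4 contrasts (highest limma adjusted p = 2.87e-05). *Lect2*, a secreted hepatocyte protein, rose by 0.38 to 0.70 (highest adjusted p = 0.0136). *Hamp2*, a paralog of hepcidin, fell in fed *p110α*hep−/− mice by 6.37 (limma adjusted p = 1.53e-06). This was the largest change of the pericentral list, and 1 of 6 calls of *Hamp2* over the 12 pairwise contrasts. The zone of the listed genes was not measured here.

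Between genotypes, 24 of 60 tests of the pericentral list (40%) and 33 of 60 of the periportal list (55%) were called, beside 29.1% of all genes. For the pericentral list, 2 genes were called higher and 2 lower in *p110α*hep−/− mice in the fed state on CTRL diet, and 4 and 4 on HFD, with medians of 0.11 on both diets. In fasted mice, 0 were higher and 5 lower on CTRL diet, and 2 and 5 on HFD, with medians of -0.32 and -0.21. For the periportal list, 7 were higher and 1 lower in fed mice on CTRL diet (median 0.37), 4 and 2 in fasted mice (0.03), and on HFD 8 and 2 in fed mice (0.31) and 6 and 3 in fasted mice (0.13). *Aldh1a1*, a retinaldehyde dehydrogenase, was lower by 0.72 to 1.26 in all 4 contrasts (highest limma adjusted p = 7.86e-08), and *Cyp1a2*, a cytochrome P450, was higher by 1.31 in fed and 1.05 in fasted mice on HFD (adjusted p = 9.02e-09 and 1.68e-06). Among periportal genes, *Cps1*, the first enzyme of the urea cycle, was higher by 0.53 to 1.36 in all 4 contrasts (highest adjusted p = 0.00123), and *Cyp2f2* was lower by 0.44 to 0.72 in 3. *Cdh1*, which encodes E-cadherin, was 0.75 higher in fasted *p110α*hep−/− mice on HFD (adjusted p = 0.0222). *Pck1* and *G6pc*, enzymes of gluconeogenesis, were called in 2 and 1 genotype contrasts, all higher (*Pck1* by 1.43 in fed mice on CTRL diet, adjusted p = 2.1e-06). Fasting gave 28 calls of 60 in the pericentral list (11 higher, 17 lower) and 22 of 60 in the periportal list (10 higher, 12 lower), or 46.7% and 36.7%, beside 31.3% of all genes.

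Markers of other cells were read beside the 29.1% of all genotype tests that were called. Of 8 endothelial markers, 16 of 32 genotype tests were called (50%), 14 higher and 2 lower without hepatocyte p110α. The summed level ran from 13.98 to 14.39 over arrays of *p110α*hep−/− mice and from 13.51 to 14.27 over those of *p110α*hep+/+ mice. Such a sum of linear signals stands mostly for the brightest probes, here those of *Clec4g* and *Stab2*. *Thbd*, which marks vein endothelium, was 1.49 higher in fasted mice on HFD (limma adjusted p = 1.76e-06), and *Lyve1*, a sinusoid marker, was 1.13 lower in fed mice on CTRL diet (adjusted p = 0.000251). Of 4 bile duct markers, 11 of 16 tests (68.8%) were lower and 0 higher, with summed levels of 7.88 to 8.77 in *p110α*hep−/− and 8.28 to 9.19 in *p110α*hep+/+ mice, and *Krt19* was called lower in 3 contrasts, by 0.89 and 0.73 in fed and fasted mice on HFD, and in fasted mice on CTRL diet, where 3 of 6 *p110α*hep−/− arrays were well above background. Among these markers, *Epcam* and *Krt7* were dim, well above background on 18 and 28 of 48 arrays. *Sox9*, the brightest bile duct marker, weighs most in their sum. Kupffer cell and stellate cell markers were called in 2 of 20 (10%) and 6 of 20 (30%) genotype tests, those of lymphocytes, erythroid cells and pancreas acini in 1 of 12 (8.33%), 2 of 12 (16.7%) and 4 of 8 (50%), those of glia and neurons in 7 of 8 (87.5%), all lower, and the adipose marker that passed the filter in 0 of 4. Hepatocyte markers were called in 33.3% of 24 genotype tests, 5 higher and 3 lower. Of the diet tests, 8 of 32 endothelial, 3 of 20 stellate cell, 3 of 8 pancreas, 2 of 12 erythroid, 2 of 12 lymphocyte, 1 of 8 glia and neuron and 3 of 24 hepatocyte marker tests were called with limma, beside 15.8% of all genes, and 0 of those of Kupffer cells, bile duct and adipose tissue. Of the fasting tests, beside 31.3% of all genes, calls were made for 7 of 32 endothelial, 4 of 20 stellate cell, 3 of 8 pancreas, 4 of 12 erythroid, 1 of 12 lymphocyte, 5 of 8 glia and neuron, 10 of 24 hepatocyte, 1 of 20 Kupffer cell, 5 of 16 bile duct and 1 of 4 adipose marker tests. The part of these markers in the differences of the 7 genes was not tested.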

How the data were processed

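Liver RNA of 48 mice (8 groups of 6, 1 array a mouse) was hybridized to one-colour Agilent arrays (200 ng of RNA labelled, 600 ng of cRNA hybridized). The authors deposited the scanner output of Agilent Feature Extraction 10.10.1.1, with linear intensity values for each spot, and a table of normalized log2 values for the whole series, which served as an alternative (r with the values used here of at least 0.999997, scale log2, median 7.685 on every array, genes not centred). From the median intensity, log2 was taken, outlier spots were set missing and spots of a probe averaged. Probes were kept when well above background on at least 5 of 6 arrays of 1 group. The washing batch was removed and arrays were quantile normalized, as the study's methods state. A mean for each group was fitted with limma 3.58.1 (statmod 1.5.0, R 4.3.3) with array weights, and p-values were adjusted by Benjamini-Hochberg. They measure the spread between mice. Precision is limited by the number of arrays. The steps were tested on simulated data in which a log2 change of 1 was given to 200 of 20459 genes, and 98.5% of these were recovered for genotype in fasted mice on HFD, 97% for diet in fasted *p110α*hep−/− mice and 97.5% for fasting in *p110α*hep−/− mice on HFD. These contrasts, all from the same simulated data, gave 10, 10 and 12 false calls. A run with 0 changed genes, for fasting in *p110α*hep+/+ mice on CTRL diet, gave 0.

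The 7 genes and all gene lists were chosen with earlier results of these data known. From each list, the genes named are drawn from those called with a fold change over 1.5 in the most of the 12 pairwise contrasts, at most 5 a list. For each of the 7 genes the 2 most correlated genes are named, except that 1 of them is not reported here. Alternatives covered the signal and background correction, scaling, the filter, batch, slide and replicate number, array weights, the samples fitted, the probe of a gene, the call rule and leaving out each array.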

Additional observations from a re-analysis of the deposited data

Results flagged for a closer look

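A single mouse stood apart from the other 5 of its group in 6 of 56 sets of 6 arrays (Dixon's test at 95%, which chance alone passes in about 1 set in 20). *Glul* was 15.17 in replicate 5 of fasted *p110α*hep−/− mice on HFD, against 14.61 to 14.75 in the others. *Lgr5* was 6.28 in replicate 2 of fasted *p110α*hep−/− mice on CTRL diet, against 6.65 to 6.86. In replicate 3 of fed *p110α*hep−/− mice on HFD, both *Lgr5* (7.51, others 8.26 to 8.60) and *Rhbg* (9.52, others 10.24 to 10.57) were low, and this array had the lowest weight in the fit, 0.35. *Slc1a2* was 11.97 in replicate 4 of fed *p110α*hep−/− mice on CTRL diet, against 12.23 to 12.32. *Lhpp* was 13.14 in replicate 1 of fasted *p110α*hep+/+ mice on HFD, against 13.91 to 14.08.

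An effect differed between groups by a limma interaction test in 3 cases. The fasting effect on *Rhbg* on CTRL diet differed between genotypes by -0.79 (adjusted p = 0.0498). The diet effect on *Slc1a2* in fasted mice differed between genotypes by 0.64 (adjusted p = 0.0127). In *p110α*hep−/− mice, the fasting effect on *Lhpp* differed between diets by -0.70 (adjusted p = 0.0234).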

How the results depend on the processing

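Of the 39 calls of the 7 genes, 26 held in all 48 fits that left out 1 array and 28 in every other alternative except the single washing batches. Leaving out 1 array gave 8 to 11 genotype calls, 12 to 15 diet calls, 10 to 13 fasting calls and 1 to 4 interactions (main counts 10, 14, 12 and 3). With a fold change over 1.5 as well, 6 genotype, 9 diet and 4 fasting calls were left. The arrays of the first washing batch alone gave 6 genotype, 6 diet, 6 fasting and 2 interaction calls, and those of the second 8 genotype, 6 diet and 5 fasting calls and 0 interactions (7 of 42 at an unadjusted p below 0.05), with fewer arrays in each. Without a filter on dim probes, 1 interaction was called. The fall of *Lgr5* with fasting in *p110α*hep+/+ mice on CTRL diet turned to 0.19 in the first batch; the cause was not tested. With the replicate number as a block, 10 genotype, 14 diet, 11 fasting and 3 interaction calls were found, and 37 of the 39 calls were kept. Same-numbered arrays had a median correlation of 0.012 between their deviations (lowest -0.35), so the numbers were not taken to pair mice, and 15 of 48 arrays matched best with their own number. *Axin2* had no value when probes had to be well above background on all arrays, and its low signal limits what can be detected.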
